A study of Mus musculus with 6 samples.

Results

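The 10 genes described here, which glucocorticoids are known to raise, were followed in mouse skin: Fkbp5, Tsc22d3, Zbtb16, Sgk1, Klf9, Errfi1, Pdk4, Angptl4, Ddit4 and Cebpd. They were chosen by name with the signals of these same arrays already known to be higher in the knock-in group. Their differences between the groups are therefore a description, and no p-value is given for them. Every probe set annotated to 1 of the 10 symbols alone was taken, which gave 26 of the 45037 probe sets left after the control probe sets, and 10 of 18193 genes. Skin RNA was measured on single-channel Affymetrix arrays, in 3 wild-type samples and 3 knock-in samples, all on a C57BL/6 background. The knock-in genotype carries the code KA, and the labels do not name the changed gene. Nor do they give sex, age, body site or treatment, or say that the samples of a group came from separate animals, so errors and p-values measure only the spread between these samples.

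Glucocorticoids such as corticosterone enter cells and bind the glucocorticoid receptor, which chaperones hold ready in the cytoplasm. The bound receptor moves to the nucleus and binds DNA, often at an imperfect palindrome of AGAACA and TGTTCT, where it raises many genes. It also restrains inflammatory genes. In skin the hormone thins the epidermis, holds back inflammation and arrives both from the adrenal gland and from local conversion of inactive precursors. None of the 10 genes answers to this hormone alone: fasting, low oxygen, cytokines and growth factors are also known inputs to several of them.

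The 300-base windows around annotated starts, from 250 bases before to 50 after, were taken from RefSeq for the build GRCm38.p6. Of the 10 genes, 7 had a window, 15 windows in all, and each was searched for the letters of the receptor's known motif; Zbtb16, Angptl4 and Cebpd had no entry. The 15-base palindrome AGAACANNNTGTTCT was searched on both strands, and so was its 6-base arm AGAACA, which reads TGTTCT on the other strand and is counted also inside the palindrome. Only 3 windows are shown: that of Sgk1 with the palindrome, that of Tsc22d3 with an arm, and that of Fkbp5, which has neither. Capitals mark these letters, and each window is written along the gene's own strand.
Sgk1, chr10:21993640-21993939, plus strand: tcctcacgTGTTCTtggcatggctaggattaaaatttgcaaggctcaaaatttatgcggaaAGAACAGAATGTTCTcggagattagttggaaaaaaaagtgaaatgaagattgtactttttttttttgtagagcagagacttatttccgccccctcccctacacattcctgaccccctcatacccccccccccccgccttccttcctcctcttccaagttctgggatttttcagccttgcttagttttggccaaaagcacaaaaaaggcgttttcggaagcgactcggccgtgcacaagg
Tsc22d3, chrX:140600473-140600772, minus strand: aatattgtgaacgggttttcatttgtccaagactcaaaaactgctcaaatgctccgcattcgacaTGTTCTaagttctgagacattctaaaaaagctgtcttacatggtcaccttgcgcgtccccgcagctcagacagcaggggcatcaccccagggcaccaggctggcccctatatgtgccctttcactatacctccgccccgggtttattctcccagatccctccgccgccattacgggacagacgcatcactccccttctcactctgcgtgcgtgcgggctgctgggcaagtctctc
Fkbp5, chr17:28486100-28486399, minus strand: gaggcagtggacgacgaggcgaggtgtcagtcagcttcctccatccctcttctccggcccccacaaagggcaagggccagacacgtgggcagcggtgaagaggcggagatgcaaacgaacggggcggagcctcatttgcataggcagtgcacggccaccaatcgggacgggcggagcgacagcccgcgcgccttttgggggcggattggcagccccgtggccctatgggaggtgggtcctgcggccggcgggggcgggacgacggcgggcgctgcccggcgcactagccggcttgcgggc
The Sgk1 window, 1 of 6 for this gene, holds the palindrome as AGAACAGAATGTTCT at bases 62 to 76 and a further arm at bases 9 to 14. The palindrome was present in 3 of 32851 windows of this length over all genes, or 0.00913%, the others belonging to Acnat2 and Gm35041. The Tsc22d3 window shown, 1 of 3 for this gene, holds an arm at bases 66 to 71, and the others hold none. An arm was present in 4 of the 15 windows of these genes, 3 of Sgk1 and 1 of Tsc22d3, and in 6233 of all windows, or 19.0%. The Fkbp5 window has neither, which says only that these letters are not in this window. A match is a description of the letters and not of a binding site.

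Signals are linear MAS5 intensities, and a difference is the knock-in mean less the wild-type mean of log2(signal + 16). Levels of different probe sets are not compared with each other, because each probe set has its own brightness. For each gene the probe set with the highest mean over the 6 arrays stands for it. The arrays were close to each other within a group, with correlations of log2 signals across genes between 0.975 and 0.985, and from 0.880 to 0.917 between groups. A gene or probe set counts as called below where limma's adjusted p over all genes or probe sets tested was under 0.05.

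The wild-type and knock-in arrays also differed in sex-linked transcripts. The signal of Xist, which is made from the inactive X chromosome, was 29.7 ± 2.44 (SD, n = 3) in wild-type and 3730 ± 282 (SD, n = 3) in knock-in samples. The signal of the Y-linked gene Eif2s3y was 687 ± 42.6 in wild-type and 5.04 ± 0.544 in knock-in samples. Genotype and sex therefore cannot be told apart in any difference given here. Tsc22d3 itself lies on the X chromosome.

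All 10 genes had higher signals on every knock-in array than on any wild-type array, at the probe set that stands for them. All 10 were called higher, where 14.8% of the 11680 genes tested were called higher and 16.3% lower. The genes were chosen for this contrast, so nothing is read from that count. The median difference of the 10 genes was 1.19, and the median over all genes tested was -0.02.

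**Figure D1:**
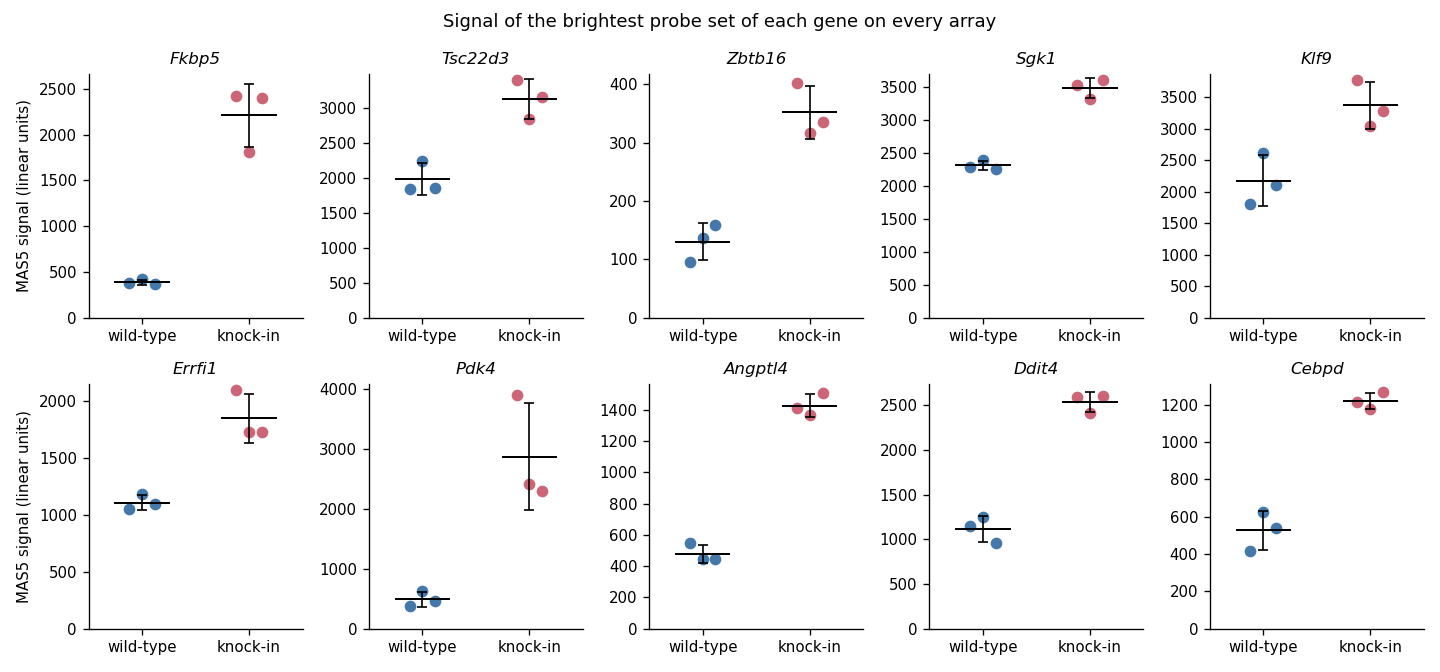
MAS5 signal in linear units (y axis) of the brightest probe set of each of the 10 genes on 3 wild-type and 3 knock-in arrays; points are arrays, the horizontal line is the mean and the bar is the SD. In every panel the 3 knock-in points lie above the 3 wild-type points, and Pdk4 has the widest knock-in spread, from 2287 to 3896.

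Fkbp5 encodes a co-chaperone of the receptor complex that lowers the receptor's affinity for hormone. Its brightest probe set, 1416125_at, had signals of 375, 419 and 370 in wild-type and 2421, 1809 and 2398 in knock-in samples. The difference was 2.45 (SE 0.13), a 5.69-fold ratio of the means. Even the lowest knock-in array stood far above the highest wild-type array. Another probe set, 1448231_at, gave 127, 171 and 111 in wild-type and 1117, 897 and 1227 in knock-in samples, a difference of 2.86 (SE 0.16). The remaining one, 1447736_at, was below the filter on dim probe sets, with signals between 0.504 and 4.76 on all arrays, and is not informative.

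Tsc22d3 encodes the glucocorticoid-induced leucine zipper, an inhibitor of inflammatory transcription factors. Probe set 1420772_a_at read 1847, 2247 and 1858 in wild-type and 3401, 2841 and 3155 in knock-in samples. The difference was 0.66 (SE 0.11). The groups did not overlap, and wild-type 2 and knock-in 2 came closest to each other. Probe set 1425281_a_at differed by 0.97 (SE 0.14), with wild-type signals from 990 to 1431 and knock-in signals from 2192 to 2631. The remaining pair of dimmer probe sets overlapped between the groups and differed by -0.06 (SE 0.19) at 1425557_x_at and by -0.26 (SE 0.22) at 1444365_at. The probe sets of Tsc22d3 thus disagree, and with the mean over its probe sets the difference was 0.33 and the gene was no longer called.

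Zbtb16 encodes a zinc finger repressor that also serves development and innate-like lymphocytes. Its brightest probe set, 1439163_at, read 96.2, 136 and 158 in wild-type and 403, 317 and 336 in knock-in samples. The difference was 1.35 (SE 0.17). Both other probe sets pointed the same way, by 0.76 (SE 0.15) at 1419874_x_at and by 0.43 (SE 0.33) at 1427638_at. At the latter the groups overlapped and the difference was not called.

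Klf9 encodes a Krüppel-like transcription factor that is also driven by thyroid hormone. It has 7 probe sets, the most of these genes. The brightest, 1456341_a_at, read 1802, 2605 and 2107 in wild-type and 3772, 3047 and 3283 in knock-in samples, a difference of 0.64 (SE 0.14). At the other called probe sets, 1428288_at, 1428289_at, 1436763_a_at and 1436952_at, the differences lay between 0.59 and 0.67. These 5 probe sets therefore gave nearly the same size of difference. At 1422264_s_at the groups overlapped with a difference of 0.28 (SE 0.19), and 1452723_at was below the filter.

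Cebpd encodes a C/EBP transcription factor that is raised by both glucocorticoids and acute-phase cytokines. Probe set 1423233_at read 415, 626 and 539 in wild-type and 1216, 1179 and 1266 in knock-in samples. The difference was 1.21 (SE 0.14), and the knock-in arrays varied little, with a coefficient of variation of 3.58%. The dim probe set 1456605_at overlapped between the groups, with a difference of 0.14 (SE 0.16).

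Sgk1, Errfi1 and Ddit4 act in signalling. Sgk1 encodes a kinase that promotes sodium uptake and cell survival. Its single probe set, 1416041_at, read 2284, 2393 and 2260 in wild-type and 3529, 3315 and 3610 in knock-in samples. The difference of 0.59 (SE 0.08) was the smallest of the 10, but the spread was also small, with coefficients of variation of 3.08% and 4.37%.

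Errfi1 encodes an inhibitor of the EGF receptor. Probe set 1416129_at read 1047, 1178 and 1096 in wild-type and 2093, 1724 and 1724 in knock-in samples, a difference of 0.73 (SE 0.10). Probe set 1419816_s_at differed by 0.91 (SE 0.10). Both probe sets separated the groups.

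Ddit4 encodes REDD1, which restrains mTORC1 and is also raised by low oxygen and by the integrated stress response. Its probe set, 1428306_at, read 1151, 1245 and 956 in wild-type and 2596, 2409 and 2608 in knock-in samples. The difference was 1.18 (SE 0.11). The groups lay far apart, with less spread among the knock-in arrays.

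Pdk4 and Angptl4 act in fuel use and are also targets of PPAR receptors in fasting. Pdk4, a kinase that shuts down pyruvate oxidation, read 377, 619 and 462 in wild-type and 3896, 2419 and 2287 in knock-in samples at 1417273_at. Its difference of 2.51 (SE 0.22) was the largest of the 10, and knock-in 1 stood above the other knock-in arrays. Angptl4 encodes a secreted inhibitor of lipoprotein lipase. At 1417130_s_at it read 546, 443 and 445 in wild-type and 1410, 1365 and 1509 in knock-in samples, a difference of 1.55 (SE 0.11). Its other probe set, 1453410_at, was below the filter, although its knock-in signals, 28.1, 21.0 and 23.0, all lay above the wild-type signals, 8.45, 1.52 and 2.81.

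Over all 26 probe sets, 23 passed the filter and 18 of these were called higher, none lower and 5 not called. Among all probe sets tested, 13.0% were called higher. The groups were apart, with knock-in higher, at 19 of the 26 probe sets and overlapped at 7. Among all probe sets tested, knock-in lay wholly above wild-type at 19.4%. That share covers only probe sets past the filter, whereas the 19 include 1453410_at of Angptl4, which was below it. The median difference over the 26 probe sets was 0.67. The 10 genes' passing the filter carries no weight, because a gene can pass through the group in which it is bright.

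**Figure D2:**
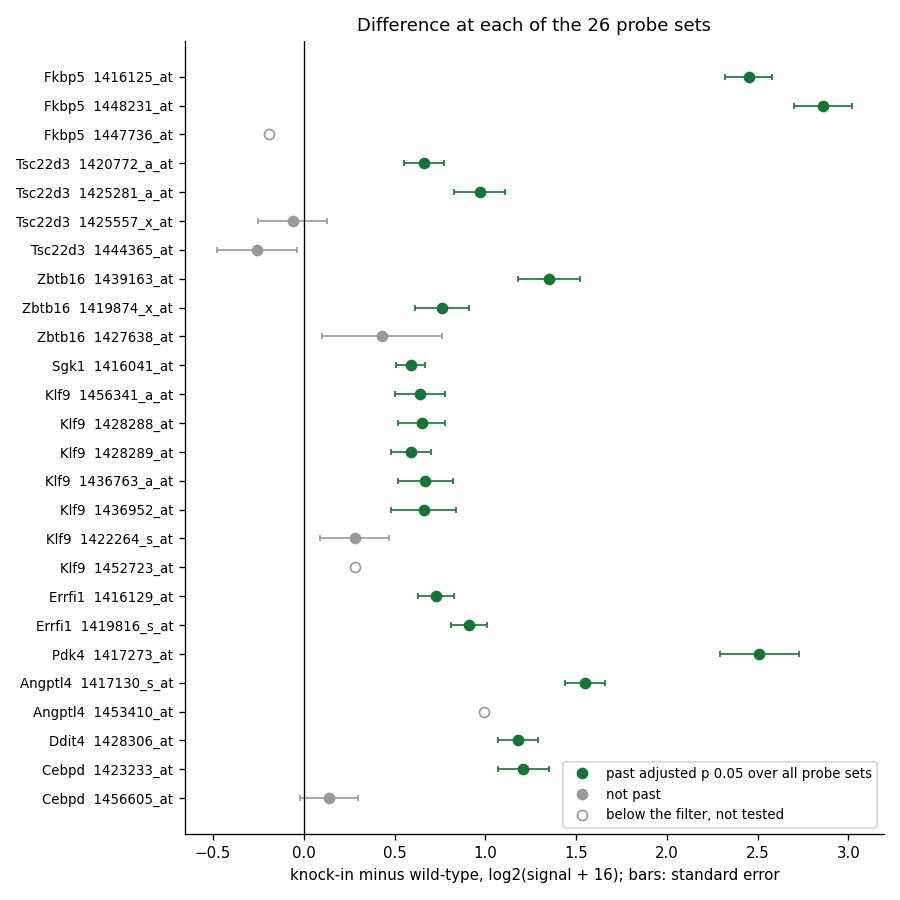
Knock-in minus wild-type difference of log2(signal + 16) (x axis) at each of the 26 probe sets (y axis), with the limma standard error as a bar; green points passed the adjusted threshold over all probe sets, grey points did not and open points were below the filter. The 5 grey points, of Tsc22d3, Zbtb16, Klf9 and Cebpd, lie between -0.26 and 0.43.

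In order of size, the differences were 2.51 for Pdk4, 2.45 for Fkbp5, 1.55 for Angptl4, 1.35 for Zbtb16, 1.21 for Cebpd, 1.18 for Ddit4, 0.73 for Errfi1, 0.66 for Tsc22d3, 0.64 for Klf9 and 0.59 for Sgk1. This order compares differences and not levels. Only 2 neighbouring pairs were separated on every array. The difference of Fkbp5 exceeded that of Angptl4 by 0.90 (SE 0.17), and that of Ddit4 exceeded that of Errfi1 by 0.45 (SE 0.13). For the other 7 neighbouring pairs the gap overlapped between the groups of arrays, so their order is not resolved.

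Within the groups the genes shared part of their spread. Wild-type 2 had the highest wild-type signal for 8 of the 10 genes and wild-type 1 the lowest for 6. Knock-in 2 had the lowest knock-in signal for 9 of the 10, the exception being Pdk4. For Errfi1, counted among the 9, knock-in 2 and knock-in 3 both read 1724 at the digits shown. The highest knock-in signals were those of knock-in 1 for 6 genes and knock-in 3 for 4. These arrays are shared by all 10 genes, so this is a property of 6 arrays and not of 10 independent measurements.

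The profiles most like those of 3 of the genes were found by the root-mean-square difference between log2 profiles over the 6 arrays, each centred on its own mean. For Fkbp5 they were 9130409I23Rik at 0.069, Tnfsf11 at 0.088 and Ifitm1 at 0.115. For Tsc22d3 they were Slc35c2 at 0.051, Sh3glb1 at 0.052 and Slc25a24 at 0.053, and for Zbtb16 they were Ucn2 at 0.083, Osmr at 0.097 and Il15ra at 0.108. With 6 arrays in 2 groups, a small value mostly means a difference of like size between the groups on this scale. The wild-type signals of 9130409I23Rik, Tnfsf11 and Ucn2 lay between 3.61 and 19.6. These genes passed the filter through the knock-in arrays alone, and the offset of 16 shrinks their differences. The ratios of means were 9.03 for 9130409I23Rik and 15.67 for Tnfsf11, against 5.69 for Fkbp5. The ratio was 5.39 for Ucn2, against 2.71 for Zbtb16.

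The receptor's own transcript was lower in the knock-in samples. Nr3c1, the glucocorticoid receptor, read 425, 621 and 600 in wild-type and 314, 275 and 318 in knock-in samples. It fell by 0.81 (SE 0.15; adjusted p = 0.00416), and its called status held in every alternative setting tried. The mineralocorticoid receptor Nr3c2 was below the filter. Of 12 receptor and chaperone genes tested, 3 fell, 1 rose and 8 did not pass, with a list median of -0.06. For this and every list below, the shares over all genes tested were 14.8% called higher and 16.3% lower. Ncoa2, a coactivator of the receptor, fell by 0.69 (SE 0.10; adjusted p = 0.00171). Dnajb1, an Hsp40 co-chaperone, fell by 0.32 (SE 0.08; adjusted p = 0.0202), and Nr2f2, an orphan nuclear receptor, rose by 0.56 (SE 0.17; adjusted p = 0.0332). Both of these small calls were lost in several settings. Dnajb1 was not called without wild-type 3, knock-in 1 or knock-in 3, nor with median centring or the replicate block. It was also lost with the mean over probe sets, since its probe sets ranged from -0.32 to 0.07. Nr2f2 was not called when any array other than wild-type 2 was left out, nor with no filter or the replicate block. In bulk skin, fewer cells of a type and less RNA per cell cannot be told apart.

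Of 7 genes of hormone supply, local or systemic, that were tested, 3 rose and none fell. Hsd11b1, which turns inactive 11-keto steroids into active glucocorticoid, read 195, 196 and 229 in wild-type and 513, 468 and 483 in knock-in samples. It rose by 1.18 (SE 0.10; adjusted p = 0.000107). H6pd, which supplies its NADPH, rose by 1.51 (SE 0.22; adjusted p = 0.00144). Cyp17a1, a steroid hydroxylase, rose by 2.59 (SE 0.20; adjusted p = 6.24e-05), from a wild-type mean of 48.2 to a knock-in mean of 366. It was dim in wild-type, and with a filter that asked for all 6 arrays it was not tested and 2 genes of the list rose. The other 4 did not pass, including Pomc at -0.57 (SE 0.36; adjusted p = 0.27). The list median was 0.18. The inactivating enzyme Hsd11b2 was among the 10 genes of this list below the filter. So were the steroid synthesis genes Star, Cyp11a1, Cyp11b1, Cyp11b2 and Hsd3b1. Among the dim genes, Cyp11a1 was lower on all knock-in arrays and Mc2r higher. Apart from Hsd11b2, these dim genes were named after their values were seen. Whether the amount of hormone changed was not tested.

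**Figure D3:**
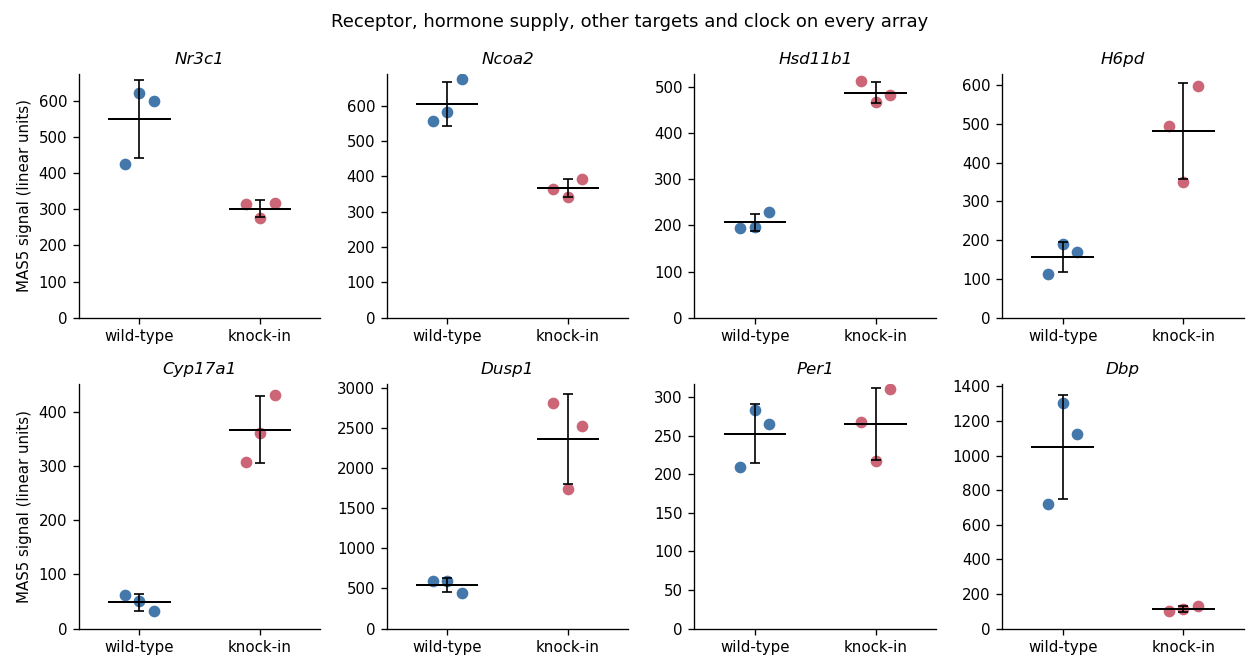
MAS5 signal in linear units (y axis) on 3 wild-type and 3 knock-in arrays for 8 genes of the related lists; points are arrays, the line is the mean and the bar the SD. Nr3c1, Ncoa2 and Dbp are lower on all knock-in arrays, Hsd11b1, H6pd, Cyp17a1 and Dusp1 are higher, and the groups overlap for Per1.

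Other genes that glucocorticoids are known to induce divided. Of 30 tested, 16 rose, 2 fell and 12 did not pass, with a median of 0.46. Dusp1, a MAP kinase phosphatase, rose by 2.07 (SE 0.19; adjusted p = 0.000156). Trim63, a muscle ubiquitin ligase, rose by 1.96 (SE 0.18; adjusted p = 0.000167), and Mt1, a metallothionein, by 1.91 (SE 0.18; adjusted p = 0.000198). Cd163, a scavenger receptor of macrophages, rose by 2.70 (SE 0.27; adjusted p = 0.000248). Per1, a classical direct target in many tissues, read 209, 283 and 265 in wild-type and 268, 217 and 310 in knock-in samples. Its groups overlapped, with a difference of 0.06 (adjusted p = 0.79 in limma's test). Per1 was named after its values were seen. Leaving out 1 array moved the count of risen genes to between 11 and 16.

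Genes that glucocorticoids are known to restrain were mostly higher. Of 18 tested, 15 rose, 2 fell and 1 did not pass, with a median of 1.23. Il6, Cxcl1, Ptgs2, Mmp13 and Sele lay below the array median on every wild-type array. These genes passed the filter through the knock-in arrays alone, so their passing carries no weight. With a filter that asked for all 6 arrays, 9 genes rose and 2 fell. Tnf, Nos2 and Csf2 were below the filter and are not counted. Il1b, the inflammatory cytokine, rose by 4.17 (SE 0.11; adjusted p = 2.3e-07), and Ptgs2, the inducible cyclooxygenase, by 3.95 (SE 0.11; adjusted p = 2.41e-07). Cxcl1, which attracts neutrophils, rose by 3.97 (SE 0.17; adjusted p = 3.33e-06). Krt16, a keratin of activated epidermis, rose by 3.64 (SE 0.21; adjusted p = 1.84e-05). The wild-type signals of Ptgs2 and Cxcl1 lay below 16, so the offset of 16 understates their change. Krt5 and Krt14 belong both to this list and to the keratinocyte markers. The 2 that fell, Col1a1 at -0.52 and Krt17 at -0.49, were named after their values were seen; without wild-type 3 or without knock-in 3 neither was called, and without any other single array 1 of them was.

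Markers of other cell types moved between the same groups, and their part in the members' differences was not tested. All 5 neutrophil markers tested rose, and their summed signal was 533 to 761 in wild-type and 14405 to 18546 in knock-in samples. All 4 mast cell markers rose, with sums of 516 to 810 and 2217 to 2755, as did 3 of 4 endothelial markers, with sums of 233 to 333 and 576 to 716. With a filter that asked for all 6 arrays, 2 neutrophil, 2 mast cell and 2 endothelial markers were called higher. All 5 hair follicle keratins fell, with sums of 26450 to 32862 and 9609 to 17345. Of 7 skeletal muscle markers 4 fell, with overlapping sums of 36232 to 54048 and 22048 to 37088. Leaving out 1 array moved that count to between 3 and 5. Of 6 keratinocyte markers 2 rose, with sums of 33207 to 37951 and 36827 to 48332. Of 5 fibroblast markers 1 rose, with sums of 23948 to 31654 and 27380 to 30615. The markers of the labelled tissue were thus bright in both groups. Of 5 macrophage markers 2 rose, with overlapping sums of 5781 to 8662 and 8434 to 12768; without wild-type 3 or knock-in 3, 1 did. The only T cell marker tested fell, and the sums of all 4 were 171 to 206 and 36 to 76. With a filter that asked for all 6 arrays 0 T cell markers were called lower, and with no filter 2 were. When the filter was recomputed, 0 were called without any wild-type array, so this marker's passing carries no weight. Of 4 adipocyte markers 1 rose, a call lost without knock-in 3, with sums of 2022 to 4129 and 2609 to 3992. No marker was at 0 on any array.

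Several other inputs of the 10 genes were followed by lists. Among hypoxia targets, 9 of 13 rose and none fell, with a median of 0.61. Slc2a1, the glucose transporter GLUT1, rose by 2.33 (SE 0.10; adjusted p = 2.45e-06), and Adm, the vasodilator peptide adrenomedullin, by 1.52 (SE 0.21; adjusted p = 0.00126). Egln3, an oxygen sensor, rose by 0.78 (SE 0.08; adjusted p = 0.00035), and Pgk1, a glycolytic enzyme, by 0.66 (SE 0.09; adjusted p = 0.00106). The probe sets of Egln3 ranged from 0.07 to 0.78, and with their mean the difference was 0.42 and still called.

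Of 11 STAT3 and C/EBP genes, which relate to Cebpd, 5 rose and none fell, with a median of 0.53. Socs3, the feedback inhibitor of cytokine signalling, rose by 2.42 (SE 0.15; adjusted p = 1.94e-05). Osmr, the oncostatin M receptor, rose by 1.36 (SE 0.15; adjusted p = 0.00035). Stat3 itself rose by 0.88 (SE 0.10; adjusted p = 0.00036) and Bcl3, a nuclear IκB protein, by 1.26 (SE 0.16; adjusted p = 0.000882). Bcl3 lay below the array median on every wild-type array and passed the filter through the knock-in arrays alone. With a filter that asked for all 6 arrays it was not tested, and 4 genes of the list rose.

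PPAR and fasting targets, another known route to Pdk4 and Angptl4, gave 3 higher and 2 lower of 11, with a median of 0.07. With median centring 5 were higher and 0 lower. Plin2, a lipid droplet coat protein, rose by 1.45 (SE 0.15; adjusted p = 0.000337). Lpl, the lipase that Angptl4 inhibits, fell by 0.44 (SE 0.10; adjusted p = 0.0114), but was not called with the median centring of each array. Cd36, a fatty acid transporter, rose by 0.60 (SE 0.16; adjusted p = 0.0224), and Ucp3, a mitochondrial carrier, by 0.63 (SE 0.18; adjusted p = 0.0305). The Cd36 call was lost without wild-type 3, knock-in 1 or knock-in 3, and the Ucp3 call when any array other than knock-in 3 was left out. Without wild-type 3 or without knock-in 1, 1 of the 3 risen genes was called, and the lower calls dropped to 1 without wild-type 2, wild-type 3 or knock-in 2.

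Of 13 genes around mTORC1 and stress inputs of Ddit4, 5 rose and 2 fell, with a median of 0.14. Eif4ebp1, a translation repressor below mTORC1, rose by 0.94 (SE 0.10; adjusted p = 0.000287), and Asns, asparagine synthetase, by 0.86 (SE 0.11; adjusted p = 0.000785). Atf4, the stress response transcription factor, rose by 0.47 (SE 0.08; adjusted p = 0.00407), a call lost with the mean over probe sets. Sesn3, a sestrin, fell by 1.08 (SE 0.14; adjusted p = 0.000841). Chac1 fell by 1.34 (SE 0.25; adjusted p = 0.00475), and Ddit3 at -0.41 did not pass. Chac1 and Ddit3 were named after their values were seen. The count of risen genes was 3 without wild-type 3, knock-in 1 or knock-in 3.

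Among 11 genes of MAPK and EGFR feedback, the pathway of Errfi1, none rose and 6 fell, with a median of -0.36, while with median centring 1 rose and 2 fell. Egfr fell by 0.68 (SE 0.11; adjusted p = 0.00211) and Erbb2, its partner receptor, by 0.59 (SE 0.11; adjusted p = 0.00465). Lrig1, a negative regulator of these receptors, fell by 0.54 (SE 0.13; adjusted p = 0.0141) and Erbb3 by 0.39 (SE 0.10; adjusted p = 0.0156). The count of fallen genes was 3 without wild-type 3 and 2 without knock-in 1; Erbb3 was not called without either array, and Lrig1 not without knock-in 1. With the mean over probe sets the count was 2, and Egfr, Lrig1 and Erbb3 were not called.

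Of 14 clock genes, 3 rose and 6 fell, with a median of -0.22. Dbp, a clock output transcription factor, read 721, 1305 and 1123 in wild-type and 98.8, 111 and 130 in knock-in samples, and fell by 3.01 (SE 0.20; adjusted p = 3.46e-05). Per3 fell by 1.32 (SE 0.18; adjusted p = 0.00099) and Nr1d2, a clock repressor, by 1.05 (SE 0.17; adjusted p = 0.00239). Clock, a core activator, rose by 0.75 (SE 0.12; adjusted p = 0.00271), but not with the mean over probe sets, and its probe sets ranged from -0.27 to 0.75. The labels give no time of collection, and its part was not tested.

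**Figure D4:**
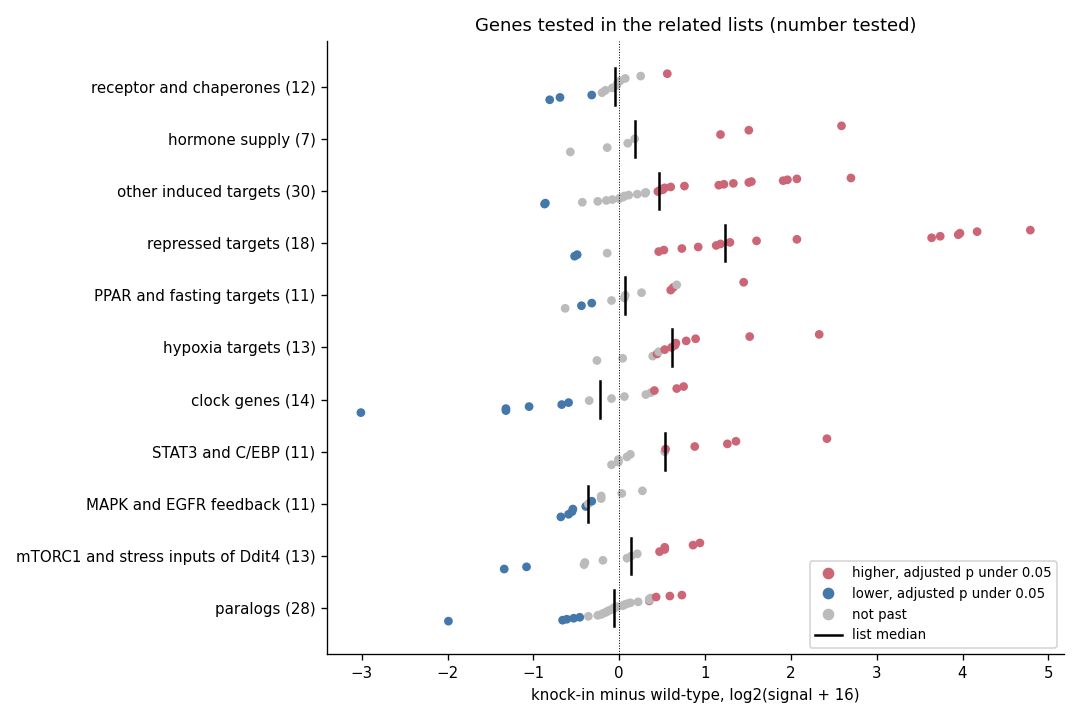
Knock-in minus wild-type difference of log2(signal + 16) (x axis) for each gene tested in 11 related lists (y axis, with the number tested); red points rose and blue points fell past the adjusted threshold, grey points did not pass, and the black line is the list median. The repressed targets have a median of 1.23, hypoxia targets 0.61 and MAPK and EGFR feedback -0.36.

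Most close relatives of the 10 genes did not pass the test, and nor did most of all genes tested. Of 28 paralogs tested, 4 rose, 5 fell and 19 did not pass, with a median of -0.06. Over all genes tested 14.8% were called higher and 16.3% lower, so nothing is read from these counts. Ddit4l, the relative of Ddit4, fell by 1.99 (SE 0.17; adjusted p = 0.000112). Tsc22d2 fell by 0.66 (SE 0.13; adjusted p = 0.00667), a call lost with the mean over probe sets, since its other probe set differed by 0.20. Tsc22d1 at 0.06 and Tsc22d4 at -0.02 did not pass. The probe sets of Tsc22d1 disagree, with differences from -1.13 to 1.66, so the value at its brightest probe set does not stand for the gene. Klf10 rose by 0.59 (SE 0.09; adjusted p = 0.002). Klf11 at 0.43 was called higher, but not without wild-type 1, wild-type 2, knock-in 2 or knock-in 3, and Klf13 at 0.35 and Klf16 at -0.12 did not pass.

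Among the relatives of Fkbp5, Fkbp3 fell by 0.46 (SE 0.08; adjusted p = 0.00415). Fkbp2 at 0.35 and Fkbp11 at 0.73 were called higher. The Fkbp2 call was lost without wild-type 1, wild-type 3, knock-in 2 or knock-in 3, and the Fkbp11 call when any array other than knock-in 2 was left out. The co-chaperone Fkbp4, which opposes Fkbp5 at the receptor, differed by -0.16 (SE 0.17; adjusted p = 0.515) and did not pass. Nor did Fkbp1a at -0.06, Fkbp1b at 0.37, Fkbp7 at 0.22, Fkbp8 at -0.19, Fkbp9 at -0.14 and Fkbp14 at 0.35.

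Of the other families, Sgk3 fell by 0.53 and Angptl7 by 0.61. Pdk1 at 0.04, Pdk2 at -0.06, Pdk3 at -0.21, Angptl1 at -0.25 and Zbtb20 at -0.36 did not pass. The C/EBP relatives Cebpa at 0.09, Cebpb at 0.13 and Cebpg at -0.09 did not pass either. Sgk2, Klf14, Angptl6 and Zbtb32 were below the filter. Without wild-type 1 or without knock-in 3 only 1 paralog was called higher, and without wild-type 3 the counts were 2 higher and 3 lower. Sgk3 was not called without wild-type 1, wild-type 3, knock-in 1 or knock-in 3, and Angptl7 not without wild-type 3.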

How the data were processed

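The authors deposited a linear intensity for each probe set on each array, computed with MAS5 per the submitters' processing notes. The version is not given in the sources used here. Scaling in MAS5 uses a single factor for an array, and the 2% trimmed mean was 150 on every array. No detection calls were used. Of 45101 probe sets, 64 controls were left out; 34945 had 1 gene symbol in the platform annotation, 932 several and 9160 none, and those with several or none named no gene.

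Log2(signal + 16) was tested with limma 3.58.1 in R 4.3.3 (lmFit, then eBayes with trend, two-sided, Benjamini-Hochberg adjusted over all 11680 genes or 23153 probe sets tested, threshold 0.05), after the code was tested on simulated data. Genes and probe sets had to exceed the median of the array on 3 or more arrays; 1 probe set per gene, that with the highest mean, was used. Errors of signals are SDs (n = 3), errors of differences limma standard errors, and those of gaps between genes plain standard errors. The number of arrays limits the precision, and the median standard error was 0.13. Of all genes, 1729 were called higher and 1908 lower, and 4993 had an unadjusted p under 0.05.

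The members, the gene lists and the tests were chosen with earlier results of these data known. All members were named, with up to 4 genes per list by smallest unadjusted p, the receptors and hormone-converting enzymes, and all measured paralogs. A few other list genes were named after their values were seen. Alternatives were other offsets, filters, scalings, variance priors and probe set rules, a replicate block and leaving out each array. In the leave-out fits the filter and the probe set per gene were at first recomputed on the 5 arrays left. After those results were seen, both were kept from all 6 arrays instead, and the recomputed version is reported beside it. Promoter windows came from RefSeq, matched by symbol.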

Additional observations from a re-analysis of the deposited data

How the results depend on the processing

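The 10 genes were chosen for this contrast, so their calls are no test of stability; with the mean over probe sets 9 were called higher, without Tsc22d3, and 10 in the other settings run. The median difference of the 26 probe sets was 0.62 to 0.78 with 1 array left out. Median centring moved the median of all genes from -0.02 to 0.11 and the calls from 1729 higher and 1908 lower (47.5% higher) to 2567 and 1202 (68.1% higher).

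Leaving out 1 array was run in 2 ways, and the switch from the earlier to the later was made after the earlier one's results were seen. With the filter and the probe set per gene kept from all 6 arrays, which is the version the report uses, 2383 to 3365 genes were called of 3637 with all arrays, 2383 without wild-type 3. With both recomputed on the 5 arrays left, as first run and added here, 2269 to 3239 were called, 2269 without wild-type 3 and 2301 without knock-in 3. Risen repressed targets numbered 14 to 15 in the former and 9 to 15 in the latter, 9 without any knock-in array, and called neutrophil markers then dropped from 5 to 2. The recomputed filter drops genes that are dim in wild-type, so the adopted version gives the steadier counts. The calls on the 4 glucocorticoid lists, 42 with all arrays, were 32 to 41 and 29 to 41. In both versions risen receptor and chaperone genes numbered 0 to 1 and fallen repressed targets 0 to 1.

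Risen receptor and chaperone genes numbered 0 with no filter, the mean over probe sets or the replicate block, and 2 with quantile normalization or median centring. Hormone supply had 1 lower call with no filter. Risen repressed targets numbered 9 with the stricter filter, and fallen ones 1 with median centring and 0 with the replicate block. The causes were not tested. The labels give no pairing of the samples by replicate number. The correlations of deviations of same-numbered arrays were -0.245, -0.408 and -0.016. These values cannot settle whether samples were paired, because the deviations within a group of 3 arrays depend on each other. With the replicate block 2449 genes were called.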
